A study of Mus musculus with 9 samples.

Results

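A set of 10 genes of inflammatory cell death were followed in mouse hearts after myocardial ischemia/reperfusion injury, with and without treatment. They were taken from the count table by their symbols, *Nlrp3*, *Aim2*, *Pycard*, *Casp1*, *Casp4*, *Gsdmd*, *Zbp1*, *Ripk1*, *Ripk3* and *Mlkl*, and all 10 of the 10 symbols were found among 54532 gene IDs. RNA was sequenced from hearts of male C57BL/6J wild-type mice aged 8 to 10 weeks, with 3 libraries in each of 3 groups. In the sham group the chest was opened and the suture was placed, but the left anterior descending artery was not tied. The study describes a tail vein injection of drug or saline for all groups. In the MIRI group the artery was tied for 30 min and reperfused for 24 h, and the animals received saline. The GXNI group had the same injury and a tail vein dose of 9 mL/kg of Guanxinning injection, a herbal preparation for intravenous use, within 10 min of ischemia. The labels name the cells as cardiomyocytes, but the sampled material was heart tissue, and macrophage, endothelial and fibroblast markers were all detected in every library. In such bulk samples fewer cells of a type and less RNA per cell cannot be told apart.

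Inflammasomes are protein platforms that assemble when a sensor detects damage or foreign material. NLRP3 and AIM2 are sensors, PYCARD (ASC) is the adaptor that links them to caspase-1, and caspase-1 matures interleukin-1β and interleukin-18 and cuts gasdermin D. The freed end of gasdermin D forms pores in the plasma membrane, which is pyroptosis; *Casp4* encodes mouse caspase-11, which cuts gasdermin D after sensing intracellular lipopolysaccharide. Necroptosis is a separate lytic death in which RIPK1 or ZBP1 activates RIPK3, and RIPK3 phosphorylates MLKL, the protein that breaks the membrane. Transcript levels do not report assembly, cleavage or phosphorylation, the steps at which these proteins are switched on.

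The libraries held 17119454 to 22811295 counted reads. The library labelled MIRI 2 was most like GXNI 1 (Spearman's rho 0.981 across 14699 genes within these libraries), and the library labelled GXNI 3 was most like MIRI 3 (rho 0.987). On the first principal component, which held 66.2% of the variance, MIRI 2 lay at -43.8 beside the sham libraries (-58.5 to -50.0), while MIRI 1 and MIRI 3 lay at 59.8 and 80.4. GXNI 3 lay at 90.4, and GXNI 1 and GXNI 2 at -41.1 and 18.3. The comparisons tabulated by the study were computed with the labels of these libraries exchanged. Which labelling is right could not be settled from the files. The deposited labels were kept, and the calls are also given without both libraries and with their labels exchanged. Both libraries stood out in these same counts, so the calls and p-values of those fits are descriptions and not independent evidence.

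Under the deposited labels, 0 of the 10 genes passed the test in any comparison. A gene was called when it changed at least 1.5-fold with an unadjusted p of at most 0.01, the study's thresholds, in edgeR's quasi-likelihood test. Of all genes tested, 8.97% were called in MIRI against sham (6.15% higher, 2.82% lower), 4.21% in GXNI against sham (2.67% higher, 1.54% lower) and 0.0203% in GXNI against MIRI (0% higher, 0.0203% lower). At an unadjusted p under 0.05, edgeR gave *Nlrp3*, *Ripk3* and *Mlkl* in each comparison with sham, 3 of the 10, and 0 in GXNI against MIRI. Of all genes 28.3%, 19.8% and 0.318% had such a p in MIRI against sham, GXNI against sham and GXNI against MIRI. Without GXNI 1, edgeR called 2 of the 10 higher in GXNI than in sham, where 10.7% of all genes were called higher. DESeq2 called 2 higher in MIRI than in sham (*Ripk3*, *Mlkl*), 3 higher in GXNI than in sham (*Nlrp3*, *Ripk3*, *Mlkl*) and 0 between GXNI and MIRI, where it called 5.34% and 3.55% of all genes higher than sham and 0.0391% between GXNI and MIRI. Both comparisons with sham share the sham libraries. The median log2 fold change of the 10 genes was 0.62 for MIRI and 0.78 for GXNI, each against sham, and 0.11 for GXNI against MIRI, beside medians over all genes tested of -0.0015, 0.011 and -0.00027.

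The groups hid a pattern that followed individual libraries. For 8 of the 10 genes the 3 highest levels were in MIRI 1, MIRI 3 and GXNI 3, a pattern seen in 20.4% of 15207 genes, and for 7 of the 10 the lowest level was in MIRI 2, as in 11.4% of genes. *Pycard* and *Casp1* were the exceptions to the first.

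**Figure D1:**
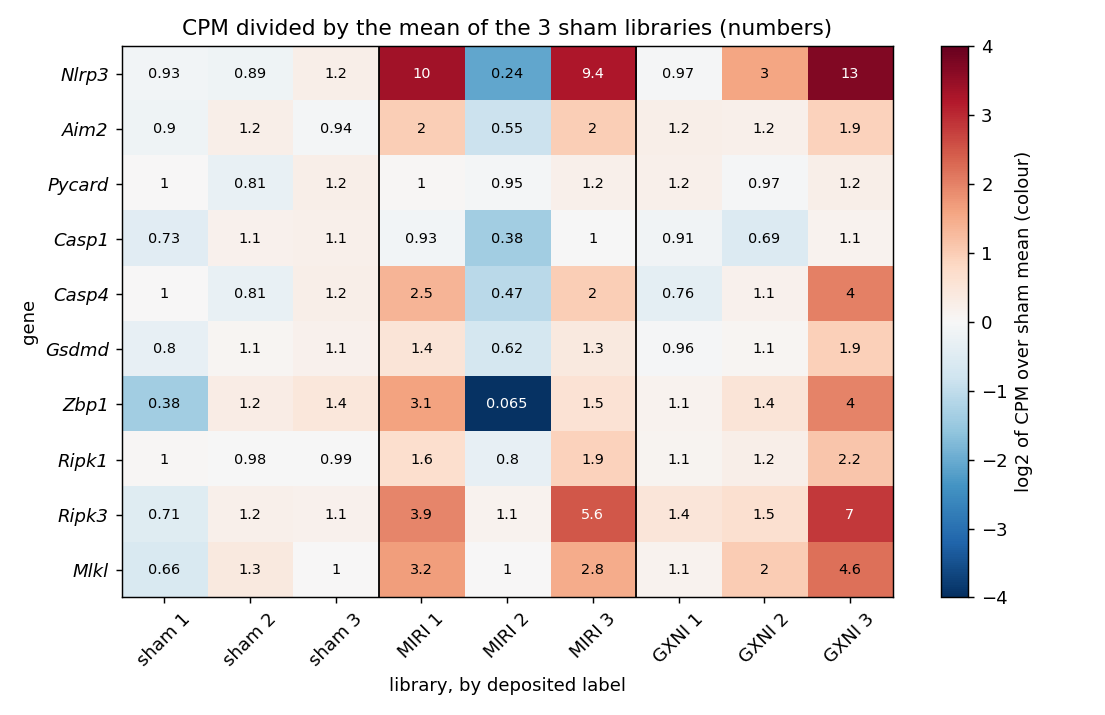
Level of each gene (rows) in each library (columns), as CPM divided by the mean of the 3 sham libraries; the printed number is the ratio and the colour its log2. MIRI 1, MIRI 3 and GXNI 3 are the highest columns for 8 of 10 genes, with *Nlrp3* at 10.4, 9.37 and 13.1, and MIRI 2 holds the lowest *Zbp1* ratio, 0.0649.

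*Nlrp3* (chromosome 11, 59541568-59566956, + strand, GRCm38) had the largest fitted fold changes against sham. In CPM (read counts scaled to library size, with TMM factors), it was at 1.40, 1.34 and 1.76 in the sham libraries, at 15.5, 0.357 and 14 in MIRI 1, 2 and 3, and at 1.45, 4.49 and 19.6 in GXNI 1, 2 and 3. MIRI 2, with 6 counts, was below every sham library, and the other MIRI libraries were far above them. The fitted log2 fold change was 2.75 ± 1.04 (SE, n = 3 per group) in MIRI against sham (95% interval 0.29 to 5.20, edgeR adjusted p = 0.148) and 2.51 ± 0.89 in GXNI against sham (edgeR adjusted p = 0.225). GXNI against MIRI gave -0.23, with a 95% interval from -3.24 to 2.78 that held large changes in both directions.

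*Aim2* (chromosome 1, 173350879-173466040, + strand), the sensor of cytosolic DNA, moved over a smaller range. Its level was 1.83, 2.38 and 1.92 CPM in sham, 4.03, 1.13 and 4.03 CPM in MIRI, and 2.40, 2.37 and 3.89 CPM in GXNI. The same 3 libraries stood above the rest, each at 1.91 to 1.98 times the sham mean, and the groups overlapped. The log2 fold change was 0.60 ± 0.47 in MIRI against sham, 0.50 ± 0.30 in GXNI against sham and -0.08 ± 0.51 in GXNI against MIRI (SE, n = 3 per group).

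*Pycard* (chromosome 7, 127989708-127993867, - strand), the adaptor, varied least. It was at 5.32, 4.31 and 6.29 CPM in sham, 5.53, 5.05 and 6.14 CPM in MIRI, and 6.15, 5.13 and 6.28 CPM in GXNI. All group ranges overlapped almost entirely, and the log2 fold changes were 0.08 ± 0.21, 0.15 ± 0.22 and 0.08 ± 0.21 for MIRI against sham, GXNI against sham and GXNI against MIRI. The 95% interval in MIRI against sham, -0.43 to 0.58, bounded any change at about the calling threshold of 0.58. *Pycard* shares 485 of its 3800 merged exonic bases with Gm45205 on the opposite strand. The strand setting of the counting is not given in the sources used here, so reads in the shared bases cannot be told apart.

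*Casp1* (chromosome 9, 5298517-5307265, + strand), which encodes the inflammasome protease itself, was at 2.53, 3.87 and 3.95 CPM in sham, at 3.19, 1.31 and 3.43 CPM in MIRI, and at 3.15, 2.37 and 3.84 CPM in GXNI. No injured library exceeded the highest sham library. Its log2 fold change was -0.37 ± 0.40 in MIRI and -0.14 ± 0.29 in GXNI, each against sham, the only negative values among the 10 genes in these 2 comparisons.

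*Casp4* (chromosome 9, 5308828-5336783, + strand) lies just downstream of *Casp1* and behaved differently across libraries. Its level was 5.54, 4.41 and 6.35 CPM in sham, 13.8, 2.56 and 10.7 CPM in MIRI, and 4.10, 6.12 and 22 CPM in GXNI. The 3 high libraries stood at 1.97 to 4.05 times the sham mean, where *Casp1* stood at 0.925 to 1.11 times its own. Within a library, which no scaling between libraries affects, the ratio of *Casp4* to *Casp1* counts was 1.14 to 2.19 in sham, 4.34, 1.96 and 3.11 in MIRI 1, 2 and 3, and 1.30, 2.58 and 5.73 in GXNI 1, 2 and 3. *Casp4* was not called, with log2 fold changes of 0.75 ± 0.55 in MIRI and 0.99 ± 0.62 in GXNI, each against sham.

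The start regions of these neighbours are shown because the genes lie side by side and differed in level across libraries. Each line gives the 250 bases before a RefSeq transcript start (GRCm38.p6), 5′ to 3′, with motif matches in capitals. Both strands were searched for a κB-type motif, with matches in 1.41% of 32817 RefSeq windows of this length, an interferon-type motif (2.97%), TGANTCA for AP-1 (6.75%) and GAGGAA for PU.1 (23.3%).
Casp1, chr9:5298267-5298516, + strand: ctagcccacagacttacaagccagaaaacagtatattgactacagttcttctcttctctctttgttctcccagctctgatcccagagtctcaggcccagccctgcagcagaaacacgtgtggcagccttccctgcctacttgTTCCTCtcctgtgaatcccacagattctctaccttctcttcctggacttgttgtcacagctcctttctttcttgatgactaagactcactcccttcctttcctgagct
Casp4, chr9:5308599-5308848, + strand: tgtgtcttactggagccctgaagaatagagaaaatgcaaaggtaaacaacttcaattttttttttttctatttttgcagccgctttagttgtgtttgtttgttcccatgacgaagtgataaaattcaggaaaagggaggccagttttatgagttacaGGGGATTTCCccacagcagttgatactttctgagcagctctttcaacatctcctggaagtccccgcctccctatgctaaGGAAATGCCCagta
The *Casp4* window held 2 κB-type matches, GGGGATTTCC at 93 bases before the start on the + strand and GGAAATGCCC at 14 bases before it, the latter a match read on the - strand. The *Casp1* window held 1 match, TTCCTC, the PU.1 letters on the - strand. RefSeq windows were found for 8 of the 10 genes, all but *Zbp1* and *Gsdmd*, which were therefore not searched. *Casp4* was the only one of the 8 with a κB-type match, while the interferon-type motif and TGANTCA were found in none of the 8. A match is a description of letters and was not tested for binding.

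*Gsdmd* (chromosome 15, 75862327-75867408, + strand), the pore-forming substrate of both caspases, was at 9.14, 12 and 12.9 CPM in sham, at 16.3, 7.01 and 14.8 CPM in MIRI, and at 10.9, 12 and 21.8 CPM in GXNI. MIRI 1, MIRI 3 and GXNI 3 were above all sham libraries, and MIRI 2 was below them. The log2 fold change was 0.17 ± 0.33 in MIRI and 0.40 ± 0.30 in GXNI, each against sham.

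*Zbp1* (chromosome 2, 173206612-173218923, - strand), a sensor of left-handed nucleic acid that recruits RIPK3, spread most within the sham and MIRI groups. It was at 4.89, 15.9 and 17.7 CPM in sham 1, 2 and 3, at 39.3, 0.832 and 18.9 CPM in MIRI 1, 2 and 3, and at 14, 18.3 and 51.2 CPM in GXNI 1, 2 and 3. MIRI 2 held 14 counts of it and MIRI 1 held 839. Already among the sham hearts, sham 1 lay well below the other pair. The standard error of its log2 fold change in MIRI against sham, 0.63 ± 1.04, was larger than the value.

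*Ripk1* (chromosome 13, 34002363-34037147, + strand), the kinase at the branch point between survival, apoptosis and necroptosis, had the tightest sham values, 11.7, 11.2 and 11.3 CPM. It was at 18.1, 9.15 and 21.5 CPM in MIRI and at 12.3, 13.4 and 24.8 CPM in GXNI. Every GXNI library was above every sham library, as for 29.1% of all genes (either direction), but the log2 fold change of 0.57 ± 0.29 was not called (edgeR adjusted p = 0.297). *Ripk1* shares 241 exonic bases with Serpinb6a on the opposite strand and 511 with the pseudogene Gm17084 on the same strand, so its counts are uncertain by that overlap.

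*Ripk3* (chromosome 14, 55784995-55788865, - strand), the kinase that commits a cell to necroptosis, came closest to a call in MIRI against sham. Its level was 2.15, 3.52 and 3.41 CPM in sham, 11.8, 3.33 and 17 CPM in MIRI, and 4.20, 4.69 and 21.3 CPM in GXNI. MIRI 2 lay inside the sham range, and all GXNI libraries lay above it, where 29.1% of all genes did not overlap (either direction). The log2 fold change was 1.83 ± 0.56 in MIRI against sham (unadjusted p = 0.0140, edgeR adjusted p = 0.112) and 1.74 ± 0.67 in GXNI against sham (edgeR adjusted p = 0.235). The ratio of *Ripk3* to *Ripk1* counts within a library was 0.184 to 0.314 in sham, 0.653, 0.364 and 0.792 in MIRI 1, 2 and 3, and 0.343, 0.351 and 0.862 in GXNI 1, 2 and 3.

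*Mlkl* (chromosome 8, 111311797-111338177, - strand), the executioner downstream of RIPK3, was at 3.01, 6.0 and 4.64 CPM in sham, at 14.6, 4.64 and 12.8 CPM in MIRI, and at 5.05, 9.12 and 20.9 CPM in GXNI. GXNI 2 was also above the sham range, while GXNI 1 and MIRI 2 were within it. The log2 fold change was 1.24 ± 0.46 in MIRI against sham (edgeR adjusted p = 0.143) and 1.37 ± 0.54 in GXNI against sham (edgeR adjusted p = 0.239).

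**Figure D2:**
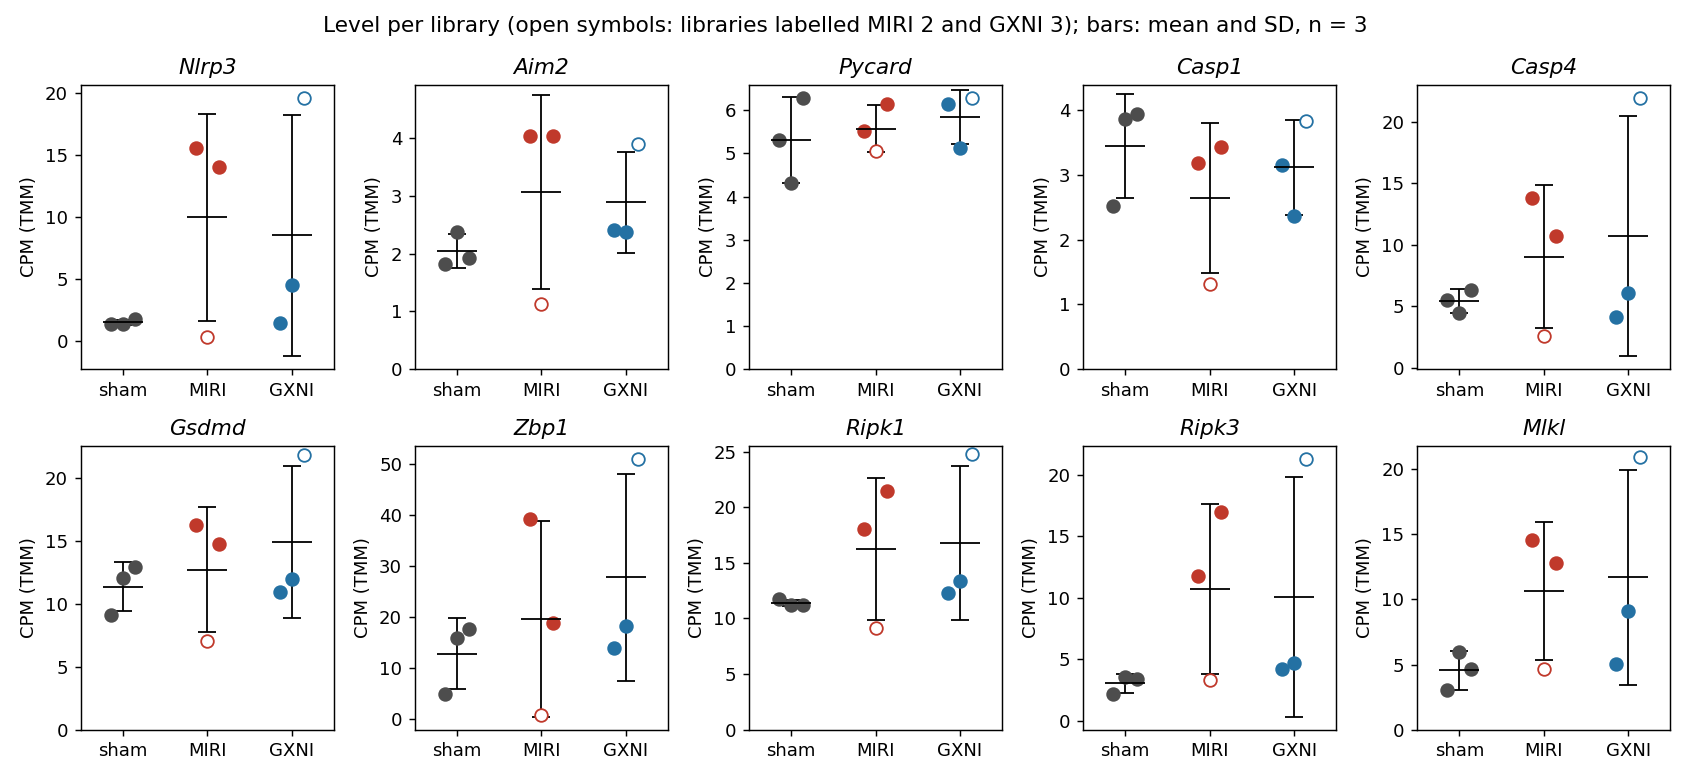
CPM of each gene in each library by deposited group, with the mean and SD (n = 3) and open symbols for MIRI 2 and GXNI 3. The open symbol is the lowest point of the MIRI group and the highest of the GXNI group in all 10 panels.

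GXNI against MIRI gave no difference that exceeded the spread for any of the 10 genes. The log2 fold changes ran from -0.23 for *Nlrp3* to 0.50 for *Zbp1*, and the edgeR adjusted p was 1 for each. The intervals were wide. That of *Ripk3* ran from -1.99 to 1.82, that of *Mlkl* from -1.32 to 1.60 and that of *Zbp1* from -2.11 to 3.11, so these libraries do not show that the groups were alike.

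**Figure D3:**
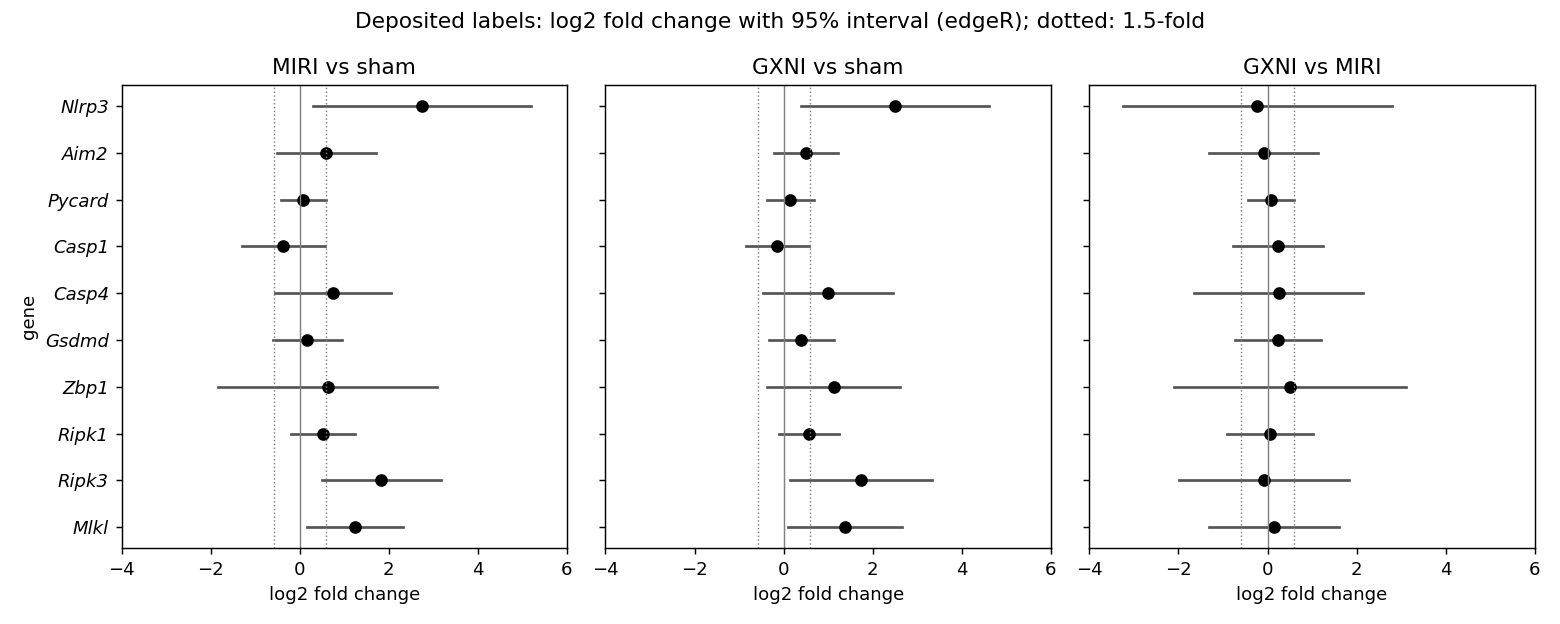
Log2 fold change (x axis) of each gene with its 95% interval in the 3 comparisons under the deposited labels; dotted lines mark 1.5-fold. The intervals of *Nlrp3*, *Ripk3* and *Mlkl* lie above 0 in both comparisons with sham, and every interval spans 0 in GXNI against MIRI.

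Leaving out MIRI 2 and GXNI 3 changed the calls. In MIRI (n = 2) against sham, the test then passed for 6 of the 10 genes upward and for 0 downward, where 30.2% of all genes were called (16.9% higher, 13.3% lower). *Nlrp3* rose 9.86-fold (log2 3.30 ± 0.19), *Ripk3* 4.76-fold (2.25 ± 0.26), *Mlkl* 3.01-fold (1.59 ± 0.26), *Casp4* 2.26-fold (1.18 ± 0.21), *Aim2* 1.97-fold (0.98 ± 0.23) and *Ripk1* 1.74-fold (0.80 ± 0.14), each with an edgeR adjusted p of at most 0.0130. *Casp1* was at -0.05 ± 0.26 and *Pycard* at 0.14 ± 0.22, while *Gsdmd* (0.45 ± 0.18) and *Zbp1* (1.18 ± 0.50) missed the threshold. In GXNI (n = 2) against MIRI (n = 2), *Nlrp3* (-2.30 ± 0.50), *Ripk3* (-1.68 ± 0.27) and *Casp4* (-1.25 ± 0.30) were lower and 0 of the 10 higher, where 4.99% of all genes were called (3.47% lower). None of these 3 passed after adjustment, with edgeR adjusted p between 0.182 and 0.189. In GXNI (n = 2) against sham edgeR called 0 of the 10, and 0 had an unadjusted p under 0.05, where 3.57% of all genes were called.

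With the labels of both libraries exchanged, all groups had 3 libraries. The MIRI group then held MIRI 1, MIRI 3 and GXNI 3, the 3 highest libraries for 8 of the 10 genes. The calls thus follow in part from the regrouping itself. In MIRI against sham 6 of the 10 genes were higher and 0 lower, where 35.8% of all genes were called (19.2% higher, 16.6% lower). They were *Nlrp3* (log2 3.44 ± 0.20), *Ripk3* (2.46 ± 0.27), *Mlkl* (1.82 ± 0.27), *Casp4* (1.51 ± 0.28), *Aim2* (0.96 ± 0.20) and *Ripk1* (0.91 ± 0.14), each with an edgeR adjusted p of at most 0.00428. In GXNI against MIRI 6 of the 10 were lower and 0 higher, where 19.2% of all genes were called (8.56% higher, 10.7% lower), each with an edgeR adjusted p of at most 0.0440. These were *Nlrp3* (log2 -2.93 ± 0.63), *Ripk3* (-2.02 ± 0.25), *Casp4* (-1.84 ± 0.37), *Mlkl* (-1.34 ± 0.30), *Ripk1* (-0.87 ± 0.19) and *Gsdmd* (-0.81 ± 0.24). Against sham, edgeR called 0 of the 10 genes in GXNI and 0 had an unadjusted p under 0.05, where 3.72% of all genes were called (2.16% higher, 1.56% lower); the values ran from -0.59 for *Casp1* to 0.51 for *Nlrp3*. *Pycard* and *Casp1* were not called in any comparison under any of these 3 treatments of the labels. In GXNI against MIRI 7 of the 10 genes had positive values under the deposited labels, the largest 0.50 for *Zbp1*. They were *Pycard*, *Casp1*, *Casp4*, *Gsdmd*, *Zbp1*, *Ripk1* and *Mlkl*, and all were negative in both of the other treatments.

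**Figure D4:**
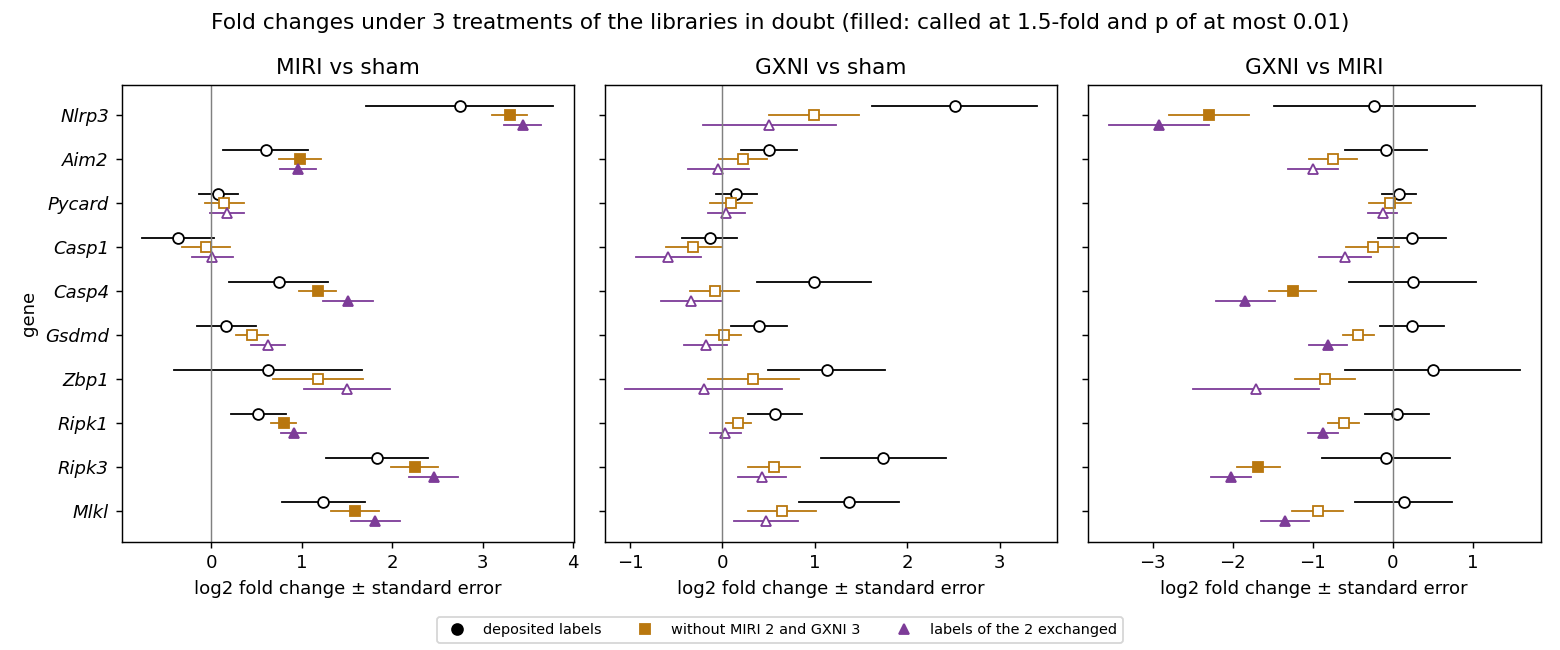
Log2 fold change ± SE of each gene under the deposited labels (circles), without MIRI 2 and GXNI 3 (squares) and with their labels exchanged (triangles); filled symbols were called. In GXNI against MIRI the circles lie near 0, while *Nlrp3* moves to -2.30 and -2.93 and *Ripk3* to -1.68 and -2.02.

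Neutrophil markers moved with the same libraries. The summed level of 14 such markers was 37.7 to 76.2 CPM in sham, 879 CPM, 33.8 CPM and 826 CPM in MIRI 1, 2 and 3, and 63.9 CPM, 282 CPM and 920 CPM in GXNI 1, 2 and 3, with 0 of the 14 at a count of 0 in any library. GXNI 2, intermediate in these markers, was also the fourth highest library for *Nlrp3*, *Ripk3*, *Mlkl*, *Ripk1* and *Zbp1*. For *Casp4*, *Gsdmd*, *Aim2*, *Casp1* and *Pycard* it lay below the highest sham library. The summed level of 12 macrophage and monocyte markers overlapped between groups, at 692 to 782 CPM in sham, 497 to 907 CPM in MIRI and 575 to 871 CPM in GXNI. The 10 cardiomyocyte markers summed to 46270 to 49510 CPM in sham, to 32840 CPM, 51720 CPM and 36250 CPM in MIRI 1, 2 and 3, and to 41870 CPM, 35740 CPM and 34060 CPM in GXNI 1, 2 and 3. They were thus low in MIRI 1, MIRI 3, GXNI 3 and GXNI 2 and highest in MIRI 2. The 7 fibroblast markers summed to 1112 to 1359 CPM in sham and to 841 CPM, 881 CPM and 643 CPM in MIRI 1, MIRI 3 and GXNI 3. They summed to 1110 CPM in MIRI 2, 1870 CPM in GXNI 1 and 908 CPM in GXNI 2. The 7 endothelial markers summed to 566 to 822 CPM in sham, to 811 CPM, 636 CPM and 1017 CPM in MIRI 1, 2 and 3, and to 655 CPM, 666 CPM and 1147 CPM in GXNI 1, 2 and 3. The mitochondrial share of counts was 25.4%, 23% and 23.7% in MIRI 1, MIRI 3 and GXNI 3 and 25.8% to 29.8% in the others. The 9 lymphocyte markers summed to 0.713 to 6.61 CPM. The part of these cell types and of the mitochondrial share in the levels of the 10 genes was not tested.

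**Figure D5:**
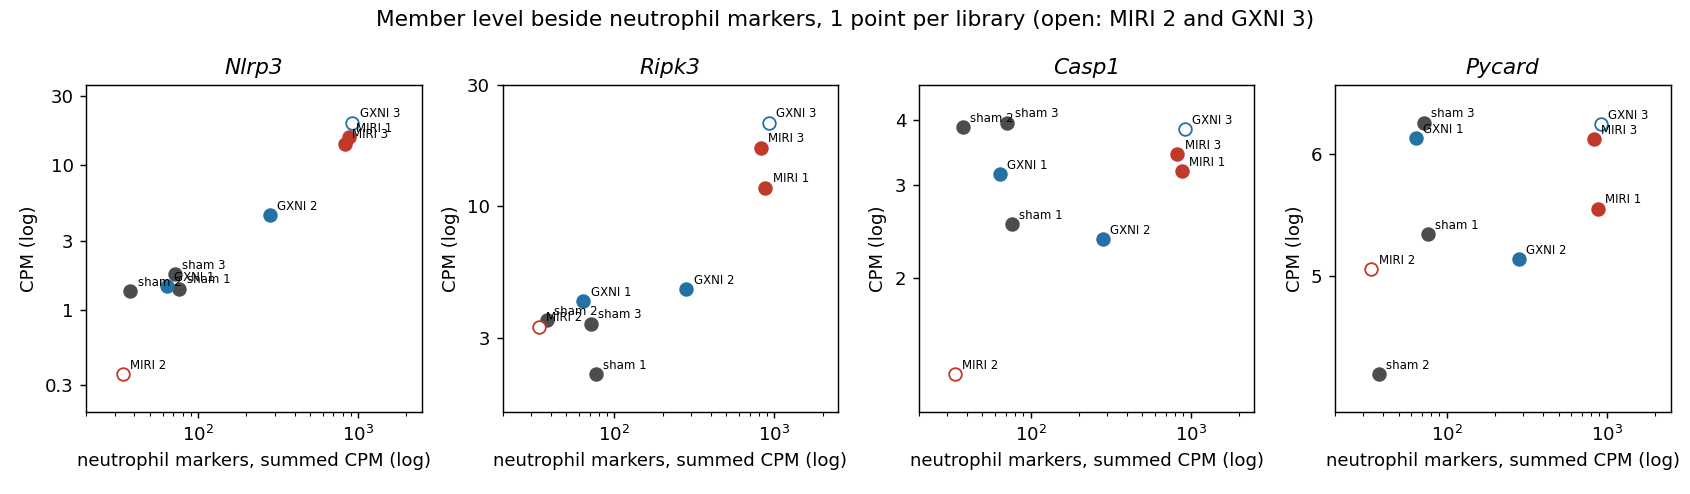
CPM of 4 genes (y axis, log) against the summed CPM of 14 neutrophil markers (x axis, log), 1 point per library, open for MIRI 2 and GXNI 3. *Nlrp3* and *Ripk3* are highest in the 3 libraries with marker sums of 826 to 920, where *Casp1* and *Pycard* lie within their sham ranges.

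Between genes, levels were compared per kilobase of merged exons. In sham hearts the mean was highest for *Gsdmd* (4.78 ± 0.83 CPM per kb, SD, n = 3), then *Zbp1* (3.63 ± 1.96), *Casp1* (2.3 ± 0.53) and *Mlkl* (1.98 ± 0.65), and each of these neighbours overlapped over the sham libraries. *Casp4* (1.46 ± 0.26), *Pycard* (1.40 ± 0.26), *Ripk1* (1.37 ± 0.03) and *Ripk3* (1.32 ± 0.33) could not be ordered within their spread either, nor *Casp4* against *Mlkl*. *Aim2* (0.583 ± 0.084) and *Nlrp3* (0.369 ± 0.056) were lowest, and their sham ranges did not meet. The order depends on the length used. Per kilobase of mean transcript length, *Casp4* was at 5.21 and *Casp1* at 2.3 CPM per kb in sham, while *Gsdmd* stayed highest (13.4) and *Nlrp3* lowest (0.521). In GXNI 3, the highest library for most of the genes, *Zbp1* reached 14.5, *Ripk3* 9.31, *Gsdmd* 9.17 and *Mlkl* 9.09 CPM per kb of merged exons.

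The wider pathway held 55 further genes in 5 lists, of which 51 were tested in each comparison. Under the deposited labels MIRI hearts had 3 of them above sham and 0 below, beside 6.15% of all genes called higher. DESeq2 called 7 of 55 higher and 2 lower there (5.34% and 2.72% of all genes). *Otulin*, a deubiquitinase that restrains RIPK1 signalling, was at 24.8, 21.0 and 23.3 CPM in sham and at 51.4, 35.1 and 70.1 CPM in MIRI (log2 1.19 ± 0.25). *Tlr4*, the lipopolysaccharide receptor, was at 19.4, 17.6 and 16.0 CPM in sham and 47.3, 23.1 and 42.8 CPM in MIRI (log2 1.10 ± 0.27). *Pdcd6ip*, which encodes ALIX of the membrane repair machinery, was at 85.4, 80.2 and 83.7 CPM in sham and 144, 104 and 154 CPM in MIRI (log2 0.70 ± 0.17). For all 3 the groups did not overlap, MIRI 2 included, as for 33.2% of all genes in either direction. They were named for being called in this comparison, so the lack of overlap adds no separate evidence.

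In GXNI against sham 2 of the 51, *Tnfrsf1a* and *Tnfrsf10b*, were higher and 0 lower, beside 2.67% of all genes called higher. DESeq2 called 5 of 54 higher and 1 lower (3.55% and 1.46% of all genes), these 2 among the 5. *Tnfrsf1a*, the main receptor for tumour necrosis factor, was at 62.8, 44.9 and 64.5 CPM in sham and at 85.3, 92.3 and 126 CPM in GXNI (log2 0.83 ± 0.21). *Tnfrsf10b*, the mouse TRAIL receptor, was at 2.96, 2.53 and 3.95 CPM in sham and 6.55, 5.77 and 15.6 CPM in GXNI (log2 1.58 ± 0.44). In GXNI against MIRI edgeR called 0 of 51 genes and DESeq2 0 of the 55 it tested, with 0 and 1 at an unadjusted p under 0.05. The lowest edgeR adjusted p among the 51 was 0.0759 in MIRI and 0.219 in GXNI, each against sham. Without both libraries in doubt 20 of 52 were higher in MIRI than in sham (all genes 16.9%), 5 of 52 lower in GXNI than in MIRI (3.47%) and 2 of 51 higher in GXNI than in sham (2.11%). With exchanged labels MIRI against sham gave 23 of 51 upward and 1 downward (19.2% and 16.6% of all genes), 14 of 51 were lower and 0 higher in GXNI against MIRI (10.7% and 8.56%), and 0 of 50 were higher and 1 lower in GXNI against sham (2.16% and 1.56%). The calls of *Tnfrsf1a* (log2 0.47 ± 0.20) and *Tnfrsf10b* (0.65 ± 0.38) in GXNI against sham were thus lost with exchanged labels, while both were still called without GXNI 3 (0.63 ± 0.17 and 0.97 ± 0.25). Leaving out 1 library at a time gave 20 higher in MIRI than in sham without MIRI 2 and 0 to 1 without any other, and in GXNI against sham 11 higher without GXNI 1 (10.7% of all genes) and 0 to 2 without any other.

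The substrates of caspase-1 were singled out after their values were seen. *Il1b* was at 1.56, 0.743 and 3.15 CPM in sham, at 32.0, 0.832 and 30.8 CPM in MIRI, and at 1.10, 11.4 and 37.4 CPM in GXNI, the same order of libraries as *Nlrp3* at the top. *Il18* was low throughout, with 4 to 47 counts per library. Under the deposited labels edgeR called neither, with log2 fold changes in MIRI against sham of 3.56 ± 1.17 and 1.41 ± 0.75, and DESeq2 called *Il1b* (3.55). Without MIRI 2 both were called higher by edgeR, *Il1b* at 4.12 ± 0.41 and *Il18* at 1.86 ± 0.49, and likewise with exchanged labels, at 4.21 ± 0.37 and 2.15 ± 0.46. In GXNI against sham edgeR called neither under any of the 3 treatments of the labels. In GXNI against MIRI it called both lower with exchanged labels only, *Il1b* at -2.88 ± 0.82 and *Il18* at -1.68 ± 0.47.

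The genes most like each of the 10, *Casp1* left out, across the 9 libraries were found by Pearson's r of log2 CPM, a description over libraries that share the same large component. *Nlrp3* was most like *Slc2a6* (r = 0.995) and *Tnfrsf1b* (0.993), *Ripk3* most like *H3f3b* (0.995) and *Acsl5* (0.993), *Ripk1* most like *Ptbp3* (0.995) and *Wipf1* (0.993), and *Mlkl* most like *Peak1* (0.990) and *Crlf3* (0.982). *Casp4* was most like *Zfp746* (0.984) and *Nom1* (0.980), and *Aim2* most like *Gak* (0.988) and *Pfkfb4* (0.981). *Zbp1* was most like *Oasl2* (0.992) and *Oas1g* (0.991) and *Gsdmd* most like *Samd9l* (0.988) and *Rsad2* (0.984), all 4 known as interferon-induced genes. *Pycard* had the weakest best match, 4732487G21Rik (0.891), and then Gm11346 (0.866). Among the 10 genes themselves the highest r was 0.960, between *Nlrp3* and *Ripk1*, and the lowest was 0.304, between *Mlkl* and *Pycard*.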

How the data were processed

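Total RNA of heart tissue was sequenced, with 3 libraries per group (sham, MIRI, GXNI) as the labels give them. The deposited values are raw read counts per gene, made by the authors by alignment to mm10 with HISAT2 and counting with featureCounts of Subread; versions and the strand setting are not given in the sources used here. Of 54532 gene IDs, 54409 had a GENCODE symbol. No column belonged to another sample (0 of the count columns).

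edgeR 4.0.16 in R 4.3.3 was run on the 6 libraries of each comparison, with filterByExpr, TMM and the quasi-likelihood test, and Benjamini-Hochberg adjustment over all genes tested (14644, 14762 and 14695 in MIRI against sham, GXNI against MIRI and GXNI against sham). A call needed a 1.5-fold change and an unadjusted p of at most 0.01. All 10 genes passed the filter. On simulated counts with 200 genes changed by a log2 of 2, edgeR recovered all of those it tested (196, 196 and 198). The simulation gave all genes the same spread and held no deviant library, so it does not measure the power in these groups. DESeq2 1.42.0, other scaling, no filter, all 9 libraries in 1 fit, a replicate block, an adjusted threshold, leaving out libraries and exchanged labels were alternatives. Depth was 17119454 to 22811295 counts, so a level of 3 counts equals 0.131 to 0.175 CPM. The study describes the 3 libraries of each group as coming from independent animals.

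The 10 genes and the lists were chosen with earlier results of these data known. Named genes were all 10, wider-list genes called in at least 1 comparison, and the 2 genes with the highest r to each; those of *Casp1* are not reported here. *Il1b*, *Il18* and *Tnfsf10* were named after their values were seen. No 2 libraries agreed within counting noise (lowest chi-square per degree of freedom 14.4).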

Additional observations from a re-analysis of the deposited data

How the results depend on the processing

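The number of the 10 genes called stayed at 0 in each comparison with RLE scaling, all 9 libraries in 1 fit and the adjusted threshold. DESeq2 called 2 higher in MIRI than in sham and 3 higher in GXNI than in sham, and no filter on low counts gave 3 and 2 (5.75% and 3.57% of all genes called higher). Leaving out both MIRI 2 and GXNI 3 gave 6 higher in MIRI than in sham and 3 lower in GXNI than in MIRI, and exchanging their labels gave 6 and 6. Leaving out 1 library at a time gave 0 to 6 higher in MIRI than in sham (6 without MIRI 2) and 0 to 2 higher in GXNI than in sham (2 without GXNI 1). With the replicate number as a block 0 of the 10 were called. Of the wider genes, MIRI against sham then gave 5 of 51 upward and 1 downward (4.77% and 2.51% of all genes). GXNI against sham gave 3 of 51 upward (2.33% of all genes), with *Il18* (1.63) among them. The labels do not say whether the numbers pair the samples. Same-numbered deviations correlated at -0.445, 0.128 and 0.701 in GXNI against MIRI. The values were -0.085, 0.053 and 0.11 in MIRI against sham, and 0.11, -0.076 and 0.12 in GXNI against sham. With MIRI 2 and GXNI 3 in doubt, these correlations cannot settle whether the samples are paired. The block turned *Zbp1* to -0.044 in MIRI against sham and *Nlrp3* to 0.14 and *Aim2* to 0.063 in GXNI against MIRI.

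Log2 values that changed sign are as follows. Without both libraries in GXNI against MIRI, *Pycard* was -0.037, *Casp1* -0.25, *Casp4* -1.25, *Gsdmd* -0.43, *Zbp1* -0.84, *Ripk1* -0.61 and *Mlkl* -0.94, and in GXNI against sham *Casp4* was -0.083. With exchanged labels in GXNI against MIRI, *Pycard* was -0.12, *Casp1* -0.59, *Casp4* -1.84, *Gsdmd* -0.81, *Zbp1* -1.71, *Ripk1* -0.87 and *Mlkl* -1.34; in GXNI against sham *Aim2* was -0.044, *Casp4* -0.34, *Gsdmd* -0.18 and *Zbp1* -0.20, and in MIRI against sham *Casp1* was 0.012. Leaving out 1 library at a time in GXNI against MIRI gave -1.74 to 0.27 for *Nlrp3*, -0.47 to 0.16 for *Aim2*, -0.077 to 0.46 for *Casp1*, -0.82 to 0.70 for *Casp4*, -0.14 to 0.46 for *Gsdmd*, -0.29 to 1.5 for *Zbp1*, -0.34 to 0.30 for *Ripk1*, -1.26 to 0.40 for *Ripk3* and -0.59 to 0.49 for *Mlkl*. In MIRI against sham it gave -0.062 to 0.21 for *Pycard*, -0.048 to 0.45 for *Gsdmd* and -0.35 to 1.18 for *Zbp1*, and in GXNI against sham -0.32 to 0.029 for *Casp1* and -0.083 to 1.38 for *Casp4*. The cause was not tested. Counts limit the levels most for *Aim2* (19 to 94 per library) and *Casp1* (22 to 80), and in some libraries for *Nlrp3* and *Zbp1*. *Nlrp3* had 26, 27 and 33 counts in sham, 29 in GXNI 1 and 6 in MIRI 2, and *Zbp1* had 14 in MIRI 2.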

Other observations

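Sham 1 and MIRI 2 were low in *Zbp1* and also in *Oasl2* and *Rsad2*, the first among the genes most like *Zbp1* and the second among those most like *Gsdmd*. *Oasl2*, a relative of the oligoadenylate synthetases, was at 19.6, 43.3 and 54.4 CPM in sham 1, 2 and 3, at 114, 5.47 and 53.9 CPM in MIRI 1, 2 and 3, and at 50.4, 70.2 and 161 CPM in GXNI 1, 2 and 3. *Rsad2*, which encodes the antiviral enzyme viperin, was at 26.0, 61.3 and 61.2 CPM in sham, at 160, 8.32 and 101 CPM in MIRI, and at 27.7, 55.3 and 262 CPM in GXNI. GXNI 1 was thus close to sham 1 in *Rsad2*, but not in *Zbp1* or *Oasl2*.

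*Tnfsf10*, which encodes the ligand TRAIL and was chosen after its values were seen, had another pattern than its receptor. It was at 13, 62.8 and 61.3 CPM in sham 1, 2 and 3, at 18.5, 7.61 and 6.10 CPM in MIRI, and at 11.8, 11.7 and 17.8 CPM in GXNI. Sham 1 lay among the injured libraries, and under the deposited labels edgeR did not call the gene (log2 -2.08 ± 0.67 in MIRI against sham, edgeR adjusted p = 0.117), while DESeq2 called it lower in MIRI (log2 -2.09, DESeq2 adjusted p = 0.00817) and in GXNI (-1.72, DESeq2 adjusted p = 0.0306), each against sham. With exchanged labels edgeR called it lower in GXNI than in sham (log2 -2.13 ± 0.54, edgeR adjusted p = 0.172).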
